A study of Caenorhabditis elegans with 26 samples.

Results

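The transthyretin-like (ttr) genes of Caenorhabditis elegans were described across embryos of 6 groups on 26 Affymetrix expression arrays. Members are the genes whose symbol is ttr- followed by a number and that have a probe set naming them alone; of several such probe sets, the brightest one on average was kept. By this rule 40 of the 17118 genes on the array are members. The NCBI gene table lists 59 ttr genes, and the other 19 were not reached. Only ttr-24 has 2 probe sets of its own, and 3 further probe sets name 2 ttr genes each.

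Transthyretin-like proteins form a large family found in nematodes. They are small, mostly carry a signal peptide for secretion, and are distantly related in fold to vertebrate transthyretin, a carrier of thyroid hormone and retinol-binding protein. For most members no function is known. TTR-52 is the best studied: it is secreted from endoderm, binds phosphatidylserine on the surface of dying cells and bridges them to the engulfment receptor CED-1. TTR-33 has been linked to the survival of neurons under oxidative stress, but ttr-33 is not among the genes with a probe set of their own and was not analysed here.

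The study profiled total RNA of embryos harvested by bleaching gravid adults, and its question is how the dosage compensation complex acts on gene expression. No embryonic age is given, so an array can hold embryos of several stages. Embryos with a single X chromosome (XO, strain TY2222) carry xol-1(y9), her-1(hv1y101), unc-9(e101) and sdc-2(y74) and were hybridised on 8 arrays, against 6 arrays of wild-type XX embryos, both from worms on egg plates. XX embryos with sdc-2(y93), from worms also fed bacteria carrying an sdc-2 RNAi plasmid, gave 3 arrays. Their controls were 3 arrays of N2 wild-type XX embryos whose mothers were fed bacteria with an empty plasmid (RNAi plates). XX embryos with dpy-27(y57) gave 3 arrays, against 3 of wild-type XX embryos (NG plates). The titles carry a date, written as date codes 1 to 5 in calendar order. On egg plates the XO arrays fall on date codes 2 (3 arrays, 2A to 2C) and 5 (5 arrays, 5A to 5E), and the wild-type arrays on date codes 2 (3 arrays) and 4 (3 arrays). The sdc-2 arrays have date code 5 and their controls 3, and the dpy-27 arrays 1 and their controls 2, so in these comparisons genotype and date cannot be told apart. Replicates are called biological in the series text. In the comparisons within or between egg-plate dates, p-values measure the spread between arrays of one group that share a date. In the comparisons of sdc-2, dpy-27 and all XO embryos with wild type, that spread also includes the date differences on egg plates.

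The deposited values are log2 expression levels, and one step up on this scale is a doubling. An array's spread over probe sets (SD) was 2 to 2.06 for RNAi plates, 2.27 to 2.32 for egg plates and 2.41 to 2.45 for NG plates. Plate types thus look separately normalised, and each mutant was compared only with controls of its own plate type. The targeted transcript sdc-2 was lower in XO embryos (log2 difference -5.10), and differed by -0.36 (SE 0.17, adjusted p = 0.158) in sdc-2 embryos, in which her-1, a gene that SDC-2 represses, was higher (2.66). The dpy-27 transcript differed by -0.05 in dpy-27 embryos, which checks neither the allele nor the label. Arrays of one group and date correlated over genes at 0.984 to 0.998, and arrays of one group on different dates at 0.97 to 0.983. Within XO date code 5, arrays 5A and 5B correlated at 0.997 with each other, arrays 5C to 5E at 0.997 to 0.998 among themselves, and the pairs across these sets at 0.992 to 0.993. Results that rest on 5A and 5B are therefore also given without them.

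Of the 40 members, 22 had a mean above that of the median gene (6.4) and 18 did not. Over all 26 arrays the brightest probe sets were those of ttr-50 (F58B3.9, mean 12.72), ttr-16 (Y5F2A.1, 11.83), ttr-2 (K03H1.4, 10.39), ttr-6 (T28B4.3, 10.22), ttr-17 (Y5F2A.2, 9.90) and ttr-15 (T07C4.5, 9.79). Brightness also depends on the probes, so this order is not an order of transcript amount. The 5 members above the upper quartile of probe sets on every array were ttr-2, ttr-6, ttr-16, ttr-48 and ttr-50. The dimmest were ttr-14 (T05A10.3, mean 4.22), ttr-19 (C12D8.4, 4.23), ttr-29 (R90.4, 4.24), ttr-28 (R90.3, 4.27), ttr-9 (C33A12.15, 4.43) and ttr-12 (F46B3.4, 4.52). Those 6 and ttr-56 stayed below the lower quartile on every array, near the floor of the array, where a level says little. The probe sets of 6 members, ttr-15, ttr-18, ttr-24, ttr-44, ttr-50 and ttr-51, end in _s_at: such probes may match more than 1 transcript, and these values are less certain. The members lie on chromosomes V (16 genes), IV (9), III (7), X (6), and I and II (1 each).

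**Figure D1:**
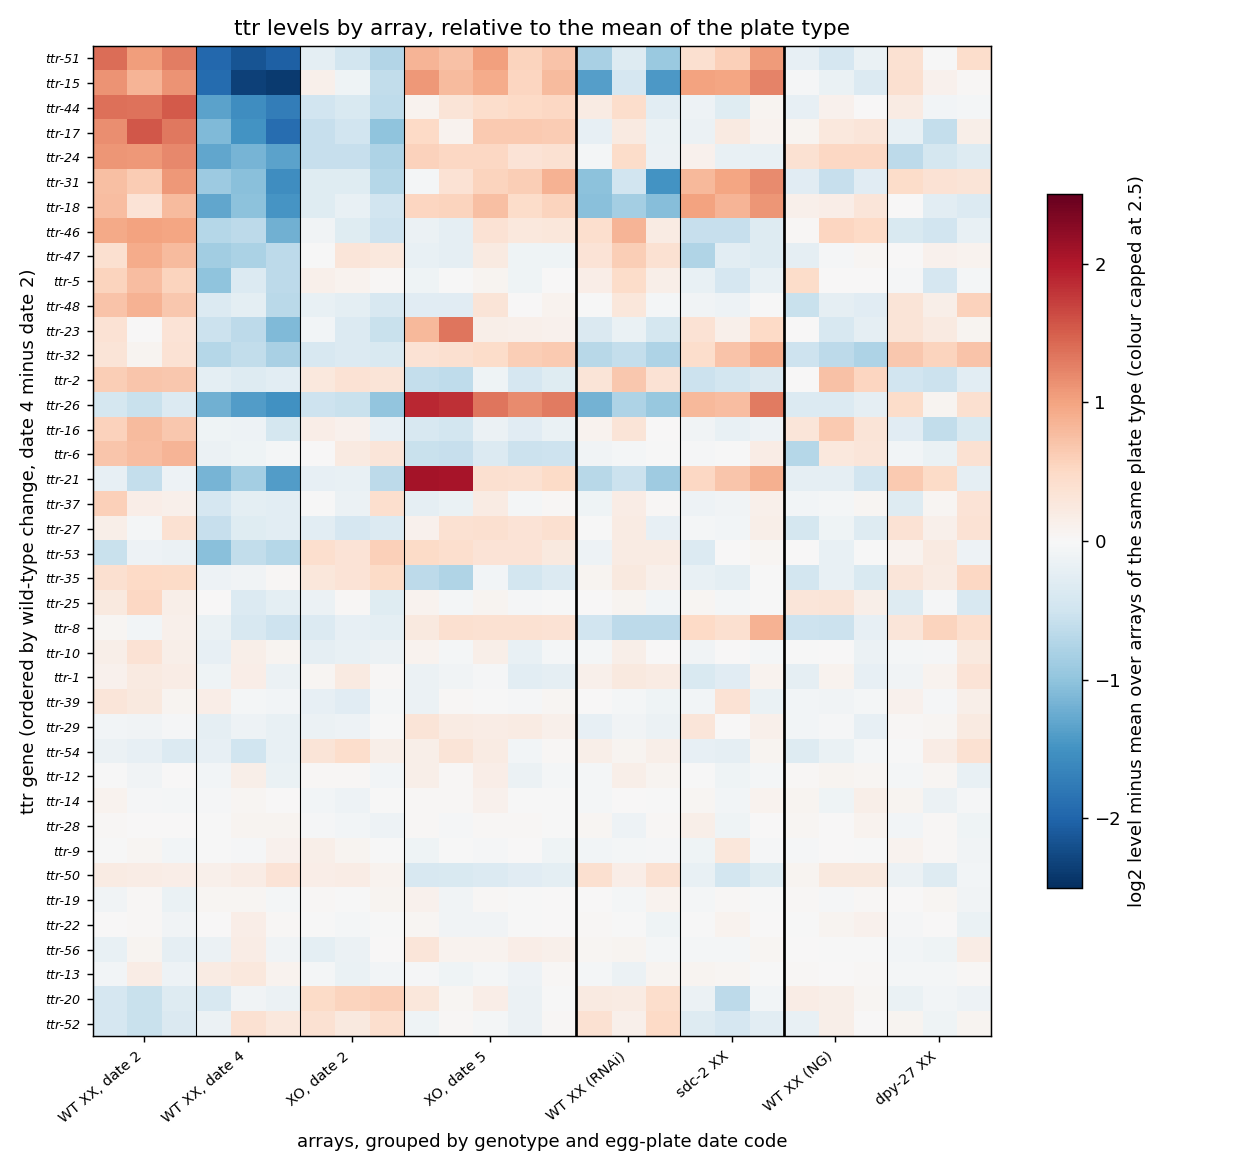
Heat map of the 40 ttr genes (rows) on the 26 arrays (columns, grouped by genotype and date), as the log2 level minus the gene's mean over the arrays of the same plate type; thick lines separate plate types and the colour is capped at 2.5. Wild-type egg-plate arrays of date code 2 are high and those of date code 4 low for the rows at the top, while the dim genes further down vary little.

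The widest variation of the family lay between the 2 dates of the wild-type egg-plate embryos, which share a genotype. With adjustment over all genes in limma, 24 of the 40 members differed between these dates, against 40% of all genes. Of these, 23 were lower at date code 4 (18.9% of all genes) and 1 was higher (21.2%). The median log2 difference was -0.53 over the members and 0.05 over all genes. The arrays of the 2 dates did not overlap for 25 members that were lower, against 22.5% of all genes, and for 1 that was higher, against 26.2%. In bulk samples such as these, fewer cells of a type and less RNA per cell cannot be told apart.

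The largest difference was in ttr-51 (JC8.8), whose 3 arrays read 9.46, 9.10 and 9.34 at date code 2 and 6.09, 5.90 and 6.01 at date code 4. The levels stood 9.84-fold apart (log2 -3.30, SE 0.13, 3 against 3 arrays, adjusted p = 5.89e-10), and no array of one date came near the other. Levels of ttr-15 were 10.98, 10.71 and 10.98 at date code 2 and 7.93, 7.54 and 7.47 at date code 4 (log2 -3.24, SE 0.17, adjusted p = 1.28e-08). For ttr-44 (C56A3.2) they were 8.97, 8.96 and 9.15 against 6.26, 6.05 and 5.87 (log2 -2.97, SE 0.12, adjusted p = 5.89e-10). These 3 genes have _s_at probe sets. The same holds for ttr-24 (Y51A2D.9), at 8.81, 8.79 and 8.92 against 6.42, 6.56 and 6.36 (log2 -2.39, SE 0.09), but its other probe set, which has no such suffix, gave -1.79 (SE 0.07). Without any _s_at or _x_at probe set 35 members remained, of which 19 were lower and 1 higher.

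Among members with probe sets of the plain kind, ttr-17, which lies next to ttr-16, read 10.83, 11.22 and 10.99 at date code 2 and 8.57, 8.19 and 7.78 at date code 4 (log2 -2.83, SE 0.20, adjusted p = 8.63e-08). The X-linked ttr-31 (F58A3.5) differed by -1.99 (SE 0.21), ttr-18 (B0334.1, _s_at) by -1.90 (SE 0.13) and ttr-46 (T07C12.7) by -1.84 (SE 0.17). All 8 differences named here kept their call in every alternative run. The member that was higher at date code 4 was ttr-52 (F11F1.7), at 6.66, 7.20 and 7.07 against 6.40, 6.25 and 6.46 (log2 0.61, SE 0.12, adjusted p = 0.000622). Its arrays did not overlap between dates either, so it went the other way from the bulk of its family. Centring each array on the median of autosomal genes moved the median difference of all genes by 0.17, and 10 members were then higher and 23 lower.

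**Figure D2:**
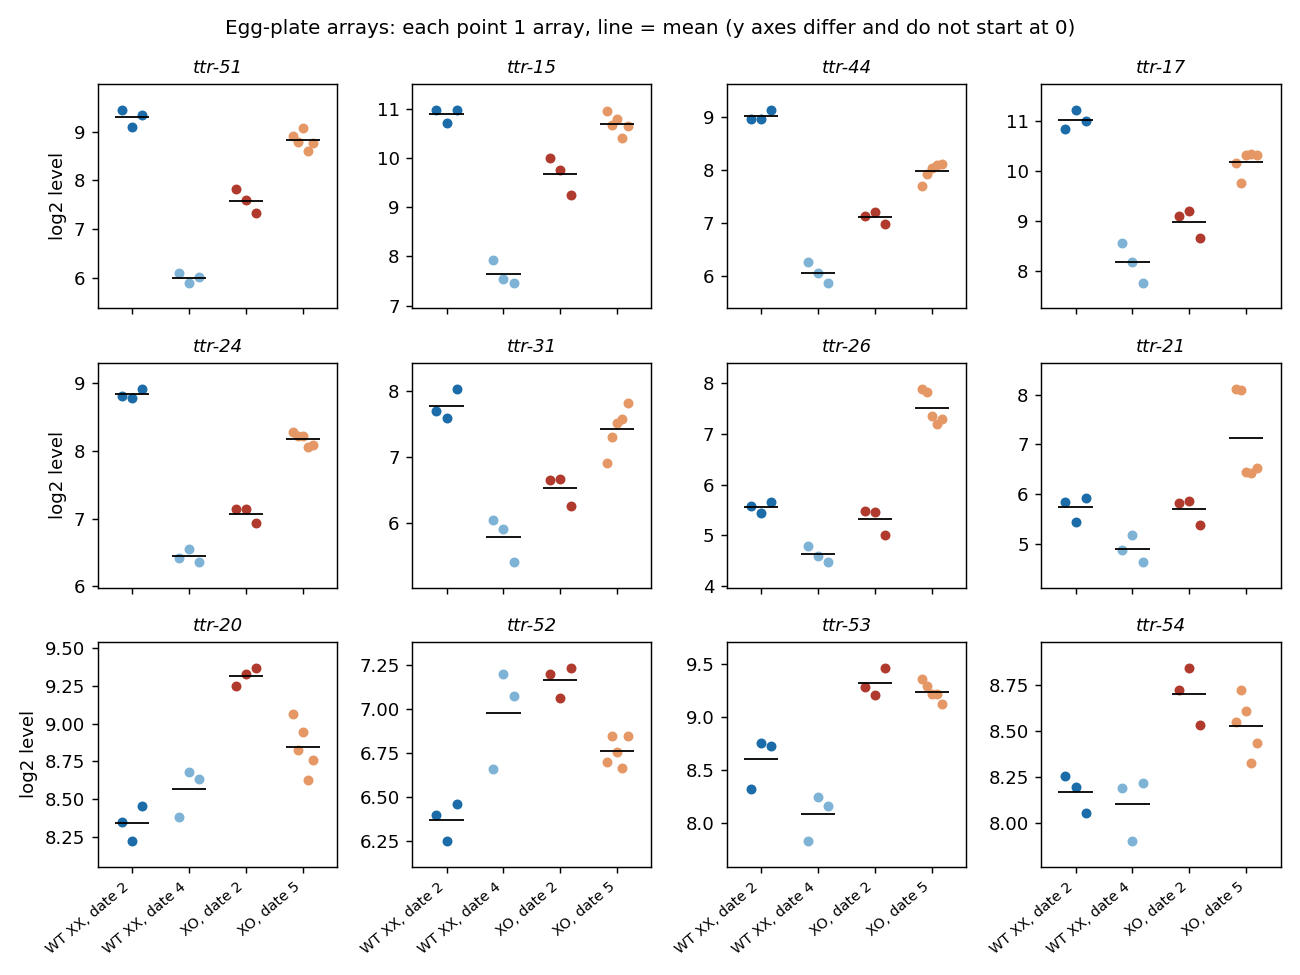
Log2 level of 12 ttr genes on the 14 egg-plate arrays, 1 point an array and a line at the mean of each group and date; the axes differ between panels and do not start at 0. In the panels from ttr-51 to ttr-31 the mean is highest for wild-type date code 2 and lowest for wild-type date code 4, with XO date code 5 arrays overlapping the former for ttr-15 and ttr-31, and in the panels of ttr-53 and ttr-54 every XO array lies above every wild-type array.

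XO and wild-type embryos can be compared on 1 shared date, code 2, with 3 arrays each. There 24 members differed, against 41.6% of all genes: 20 were lower in XO embryos, against 19.6%, and 4 were higher, against 21.9%. The median log2 difference was -0.33 over members and 0.02 over all genes. Arrays of the 2 genotypes did not overlap for 22 members lower in XO (25.4% of all genes) and 4 higher (28.1%). This comparison and the one between wild-type dates share the 3 wild-type arrays of date code 2, in which many members were high, so the falls in both are not independent of each other.

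At that date ttr-17 was at 9.10, 9.20 and 8.66 in XO arrays, against the wild-type levels near 11 given above (log2 -2.02, SE 0.20, adjusted p = 1.34e-06). For ttr-44 the XO arrays read 7.13, 7.22 and 6.97 (log2 -1.92, SE 0.12), for ttr-24 7.14, 7.14 and 6.93 (log2 -1.77, SE 0.09) and for ttr-51 7.82, 7.59 and 7.33 (log2 -1.72, SE 0.13). None of these overlapped with the wild-type arrays of the same date, and the other probe set of ttr-24 gave -1.52. Further falls among the largest were in ttr-46 (-1.29, SE 0.17), ttr-31 (-1.25, SE 0.21), ttr-15 (-1.22, SE 0.17) and the X-linked ttr-48 (ZC64.2, -1.03, SE 0.15). All 8 kept their call in every alternative run. The 4 members that rose, ttr-20, ttr-52, ttr-53 and ttr-54, did so by 0.97, 0.80, 0.72 and 0.53.

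Between the 2 dates of XO embryos 24 members differed, against 40.5% of all genes. At date code 5, 16 were higher (19.4% of all genes) and 8 were lower (21.1%). The median log2 difference was 0.13 over members and -0.01 over all genes. Arrays did not overlap for 17 members that were higher (20.1% of all genes) and 7 that were lower (22.4%). The comparison shares the XO arrays of date code 2 with the one before. The largest difference was in ttr-26 (Y51A2D.11), at 5.49, 5.45 and 5.01 on date code 2 and 7.89, 7.83, 7.35, 7.20 and 7.30 on date code 5 (log2 2.19, SE 0.16, 5 against 3 arrays, adjusted p = 9.4e-08). For ttr-21 (F09F3.6) arrays 5A and 5B read 8.12 and 8.09, arrays 5C to 5E 6.45, 6.43 and 6.52, and the date code 2 arrays 5.83, 5.86 and 5.39. The difference between dates was 1.43 (SE 0.36, adjusted p = 0.00502) with all arrays and 0.77 (adjusted p = 0.000774) without 5A and 5B. The same pair was set apart for ttr-23, at 5.65 and 6.18 against 4.95 to 4.98 in 5C to 5E.

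The next largest differences were in ttr-51 (1.25, SE 0.12), ttr-17 (1.19, SE 0.18), ttr-24 (1.10, SE 0.08), ttr-15 (1.02, SE 0.16), ttr-31 (0.90, SE 0.19) and ttr-18 (0.89, SE 0.12). All of these, and ttr-26 and ttr-21, stayed called in every alternative run; the other probe set of ttr-24 gave 0.70. The 8 that were lower at date code 5 included bright members, such as ttr-35 (F22A3.2, -0.82, SE 0.12), ttr-2 (-0.73, SE 0.10), ttr-6 (-0.69, SE 0.08) and ttr-50 (-0.47, SE 0.07). Without 5A and 5B, 16 members were higher and 7 lower.

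Averaged over the 40 members, the log2 level was 7.37 in wild-type date code 2 arrays (7.36 to 7.39), 7.22 in XO date code 5 (7.16 to 7.28), 6.95 in XO date code 2 (6.89 to 6.98) and 6.54 in wild-type date code 4 (6.47 to 6.60). These 4 ranges did not overlap. Marker genes of stages and tissues, from textbook lists, differed along with the members. Early maternal messages, which embryos inherit and then degrade, were higher at wild-type date code 4 than at date code 2 in 11 of 13 genes, and early zygotic regulators in 7 of 9. Body wall muscle genes were lower in 8 of 8, neuronal genes in 7 of 8 with 1 higher, intestinal genes in 5 of 7 and pharyngeal genes in 4 of 6 with 1 higher. Cuticle genes were lower in 3 of 11 with 1 higher, glial genes lower in 2 of 4, sperm genes higher in 3 of 8, at a mean log2 level of 4.78 to 6.19 over all arrays, and yolk and adult genes higher in 1 of 6. Between these dates 18.9% of all genes were lower and 21.2% higher, and of genes above the median gene 25.8% and 32.6%. The sum of linear levels over the muscle list was 14846 to 15153 at date code 2 and 7628 to 8840 at date code 4, over the neuronal list 6085 to 6829 and 3092 to 3363, and over the early maternal list 14925 to 17100 and 22899 to 23814.

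The markers moved in the other egg-plate comparisons as well. In XO against wild-type embryos of date code 2, 7 of 8 muscle genes, 7 of 8 neuronal, 5 of 6 pharyngeal and 5 of 7 intestinal genes were lower, and 6 of 13 early maternal genes were higher. Cuticle genes were lower in 7 of 11, and early zygotic genes were higher in 4 of 9 with 1 lower. Of all genes 19.6% were lower and 21.9% higher there, and of genes above the median gene 28.6% and 35.4%. In XO embryos of date code 5 against date code 2, 6 of 8 neuronal genes were higher and 1 lower, 5 of 6 pharyngeal genes were higher, and 4 of 7 intestinal genes were higher with 2 lower. Early maternal genes were higher in 4 of 13 with none lower, muscle genes were higher in 2 and lower in 3 of 8, early zygotic genes were lower in 7 of 9 with 1 higher, and cuticle genes were lower in 9 of 11 with 2 higher. Between XO dates 19.4% of all genes were higher and 21.1% lower, and of genes above the median gene 26.8% and 30.1%. The part of stage or tissue composition in the levels of the ttr genes was not tested.

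**Figure D3:**
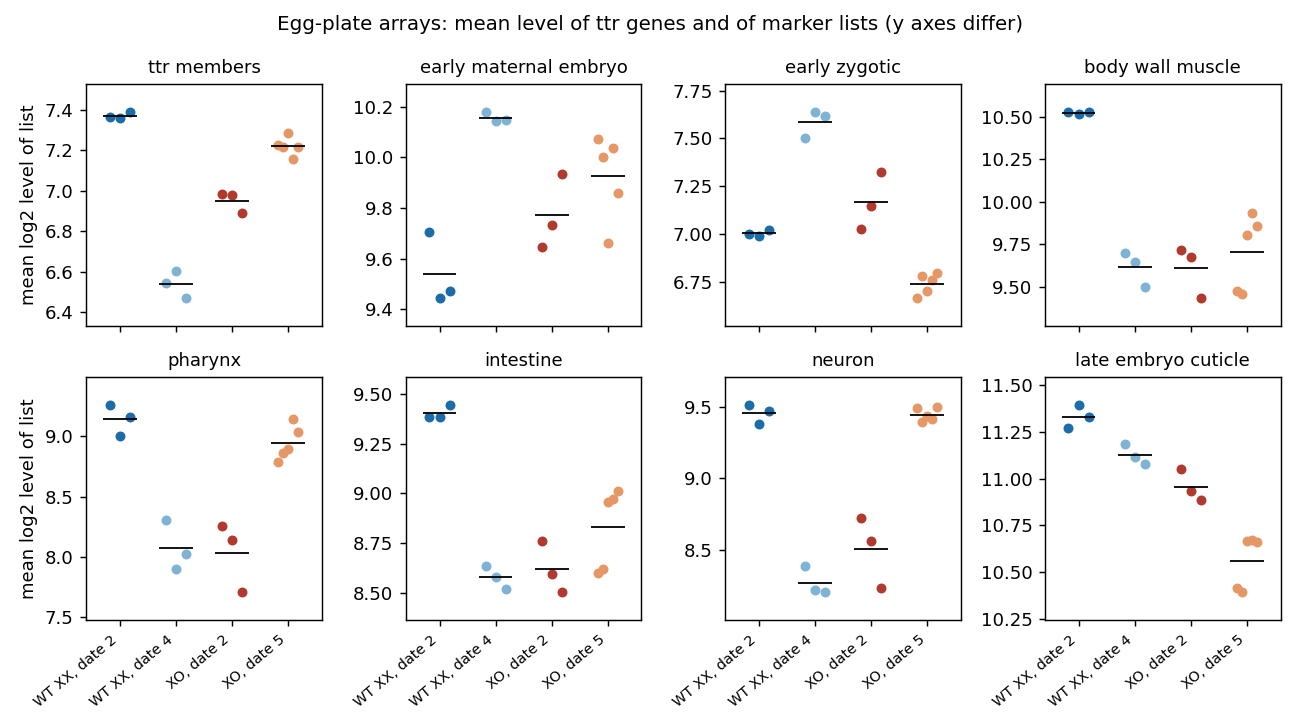
Mean log2 level of the 40 ttr genes and of 7 marker lists on each of the 14 egg-plate arrays, with a line at the mean of each group and date; the axes differ between panels and do not start at 0. The ttr mean is highest in wild-type date code 2 and lowest in wild-type date code 4. The neuronal and intestinal means are also lowest in wild-type date code 4, whereas the early maternal and early zygotic means are highest there. The muscle and pharyngeal means are lowest in XO date code 2, close to wild-type date code 4, and the early zygotic and cuticle means are lowest in XO date code 5.

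Over all egg-plate dates, XO embryos differed from wild-type XX embryos in 9 members, against 29.8% of all genes. Of these, 6 were higher, against 15.8% of all genes, and 3 were lower, against 14.1%; the median log2 difference was 0.05 over members and 0.00 over all genes. The balance of directions turned with the handling of dates: 4 were higher and 12 lower with date codes fitted as random blocks, 20 higher and 2 lower without the wild-type arrays of date code 2, and 4 higher and 17 lower without those of date code 4. Without the XO arrays of date code 2 it was 13 higher and 5 lower, and without those of date code 5 it was 4 higher and 1 lower. The arrays of 8 XO and 6 wild-type samples separated fully for 2 members that were higher, ttr-53 and ttr-54, against 5.18% of all genes, and for no member that was lower, against 3.76%. These neighbours on chromosome IV have no coding gene between them. Levels of ttr-53 (T14G10.3) ran from 9.12 through a median of 9.25 to 9.46 in XO arrays and from 7.83 through 8.28 to 8.75 in wild type, 1.91-fold apart (log2 0.93, SE 0.11, adjusted p = 1.47e-06). For ttr-54 (T14G10.4) they ran from 8.33 through 8.58 to 8.85 and from 7.90 through 8.19 to 8.26 (log2 0.46, SE 0.08, adjusted p = 0.000157).

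Both were also higher in XO embryos at date code 2 alone, as given above, as was ttr-20 (F36A4.8), which rose by 0.57 over all dates (SE 0.11, adjusted p = 0.000536) with overlapping arrays. Levels of ttr-20 were 9.25, 9.33 and 9.37 in XO arrays of date code 2 and 9.06, 8.82, 8.95, 8.62 and 8.76 at date code 5. In wild type they were 8.35, 8.22 and 8.45 at date code 2 and 8.38, 8.68 and 8.63 at date code 4, so that only the XO arrays of date code 5 overlapped with wild type. These 3 genes were called in all 29 alternatives run for each in this comparison, and the other 6 each lost the call in some. The larger rises of ttr-26 (1.60, SE 0.38, adjusted p = 0.00231) and ttr-21 (1.27, SE 0.34, adjusted p = 0.00633) rested on date code 5: at date code 2 the differences were -0.24 (SE 0.18, adjusted p = 0.329) and -0.04 (SE 0.40, adjusted p = 0.953). Without arrays 5A and 5B, the change of ttr-21 was 0.76 and that of ttr-26 1.21, and without the wild-type arrays of date code 4 neither was called (ttr-26 1.14, adjusted p = 0.0702; ttr-21 0.85, adjusted p = 0.132). A dim member, ttr-29, rose by 0.21 (SE 0.07, adjusted p = 0.0255) and at date code 2 gave -0.03.

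The 3 members that fell were ttr-6 (-0.58, SE 0.20, adjusted p = 0.027), ttr-50 (-0.35, SE 0.09, adjusted p = 0.00566) and ttr-13 (-0.16, SE 0.06, adjusted p = 0.0352). At date code 2 ttr-6 was lower by a like amount (-0.59, SE 0.09), ttr-50 differed by -0.04 (adjusted p = 0.756) and ttr-13 by -0.09 (adjusted p = 0.477). The fall of ttr-6 over all dates still depended on the dates included. It was -0.15 without the XO arrays of date code 5 (adjusted p = 0.725) or without the wild-type arrays of date code 2 (adjusted p = 0.627). With date codes fitted as random blocks it was -0.56 (adjusted p = 0.0124). Without 5A and 5B the calls of ttr-6, ttr-13 and ttr-29 were lost, leaving 6 members. Leaving out single arrays also ended calls: of ttr-6 without XO 5A, 5B or 5D or wild-type 2A, 2B or 2C (adjusted p 0.0509 to 0.0783), of ttr-29 without XO 5A or 5B or wild-type 4A (0.0513 to 0.0617) and of ttr-13 without XO 2B, 5B or 5D or wild-type 2B, 4A, 4B or 4C (0.0515 to 0.1). Over all dates, 9 of 11 cuticle genes were lower with 1 higher, and 4 of 8 muscle genes were lower. No gene of the neuronal list was called. Of genes above the median gene, 20.1% were lower and 23.8% higher.

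In sdc-2 embryos 10 members changed, against 19.8% of all genes: 6 rose, against 8.28% of all genes, and 4 fell, against 11.5%. The median log2 change was -0.02 over the members and 0.02 over all genes. Arrays did not overlap for 10 members that were higher (17.8% of all genes) and 11 that were lower (21.8%). Rises reached 4.45-fold and falls 1.87-fold. The count of 10 was 16 with array weights or with only the 6 arrays compared, 6 without control array A and 5 without control array C.

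The X-linked ttr-31 read 9.25, 9.43 and 9.62 in sdc-2 arrays and 7.41, 7.97 and 6.94 in controls (log2 2.00, SE 0.51, 3 against 3 arrays, adjusted p = 0.00741). For ttr-18 the arrays read 9.33, 9.17 and 9.42 against 7.29, 7.47 and 7.26 (log2 1.97, SE 0.46, adjusted p = 0.00389). The neighbours ttr-32 (R13A5.3) and ttr-8 (R13A5.6) on chromosome III rose together, ttr-32 at 7.52, 7.79 and 7.99 against 6.37, 6.48 and 6.31 (log2 1.38, SE 0.30, adjusted p = 0.00236) and ttr-8 at 6.47, 6.37 and 6.84 against 5.48, 5.31 and 5.31 (log2 1.19, SE 0.20, adjusted p = 0.000283). In all 4 genes every mutant array lay above every control array. The control levels of ttr-8 lay below the lower quartile of RNAi-plate arrays (5.64 to 5.72), so the size of its rise is less certain.

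The estimates for ttr-15 (2.15, SE 0.74, adjusted p = 0.043) and ttr-26 (1.93, SE 0.57, adjusted p = 0.0189) had the largest standard errors among these members, from a spread shared by all 26 arrays. That spread includes the date differences on egg plates, where the SD of ttr-15 was 1.79 in wild-type and that of ttr-26 1.17 in XO embryos. The arrays compared were tighter. Levels of ttr-15 were 11.29, 11.28 and 11.53 in sdc-2 arrays and 8.92, 9.86 and 8.86 in controls, and those of ttr-26 were 7.33, 7.29 and 7.81 against 5.33, 5.74 and 5.57. Mutant and control arrays did not overlap for either gene. In the model over all arrays, the call of ttr-15 was lost without sdc-2 array A, B or C or control array A or C (adjusted p 0.0785 to 0.137). That of ttr-26 was lost without sdc-2 array C or control array A or C (0.053 to 0.065). Of the members that fell, ttr-50 was at 12.50, 12.22 and 12.37 against 13.08, 12.84 and 13.05 (log2 -0.63, SE 0.14, adjusted p = 0.00269) and kept its call without any single array. The falls of ttr-2 (-0.91, SE 0.29, adjusted p = 0.0313), ttr-52 (-0.67, SE 0.20, adjusted p = 0.0175) and ttr-20 (-0.58, SE 0.17, adjusted p = 0.0197) did not: ttr-2 lost it without any 1 of the 6 arrays, ttr-52 without sdc-2 array B or control array A or C, and ttr-20 without sdc-2 array B, where the change was -0.39, or control array C.

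Of the marker lists, 5 of 13 early maternal genes were higher in sdc-2 embryos and 5 of 11 cuticle genes were lower with 1 higher. No pharyngeal gene was called. Of genes above the median gene, 13.6% were higher and 21.7% lower. The part of stage or tissue composition in the changes was not tested. With date codes fitted as random blocks no member was called, 4 reached an unadjusted p under 0.05, and the estimates shrank, for example to 1.09 for ttr-31 and 0.58 for ttr-26. Centring on autosomal genes gave 8 higher and 2 lower, without the falls of ttr-52 and ttr-20.

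**Figure D4:**
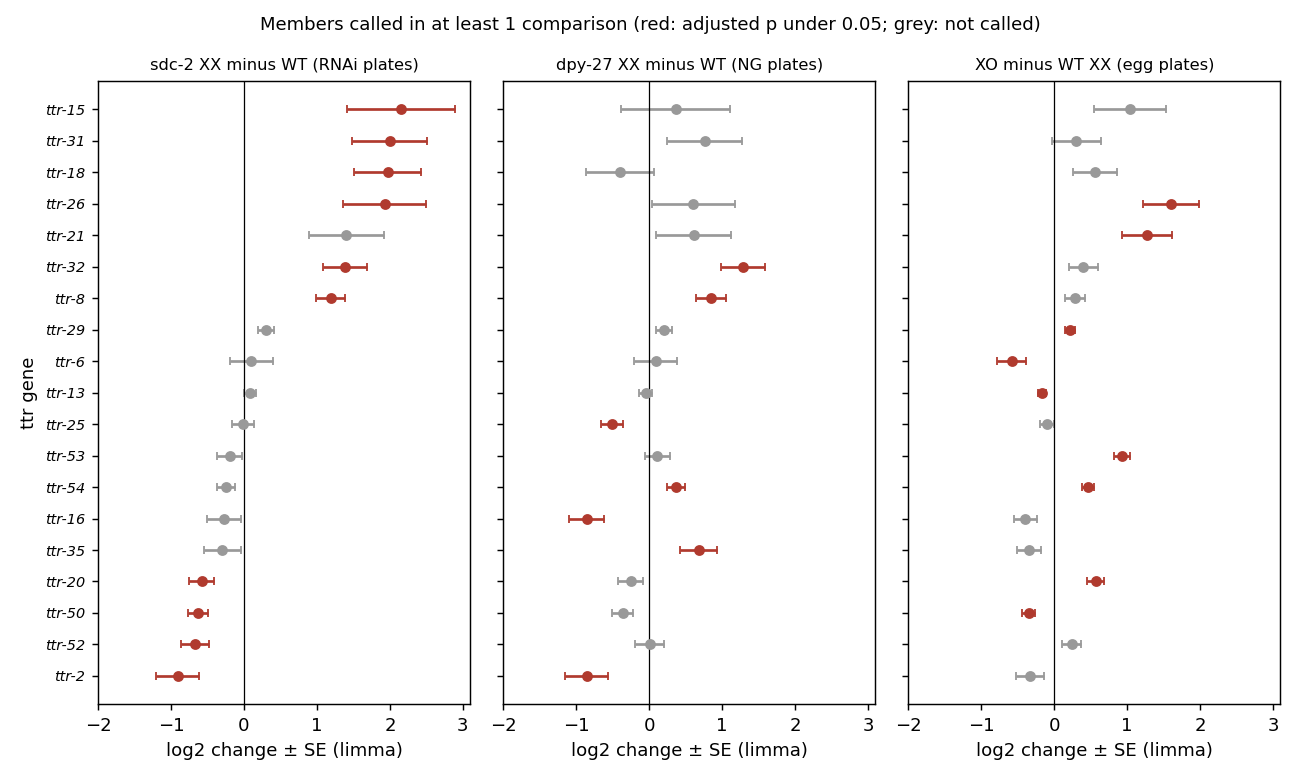
Log2 change with its standard error from limma for the 19 members called in at least 1 of the 3 comparisons of mutant with wild-type embryos, red where the adjusted p is under 0.05 and grey otherwise. The neighbours ttr-32 and ttr-8 are red in the sdc-2 and dpy-27 panels, and ttr-53 is red in the XO panel only.

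In dpy-27 embryos 7 members changed, against 30.5% of all genes: 4 rose, against 17% of all genes, and 3 fell, against 13.5%. The median log2 change was 0.05 over the members and 0.03 over all genes. Arrays did not overlap for 13 members that were higher (28.4% of all genes) and 9 that were lower (23.1%). The count of 7 was 20 with only the 6 arrays compared, 13 with array weights, 4 without any 1 of the dpy-27 arrays and 3 without control array B. Again ttr-32 and ttr-8 rose most. Levels of ttr-32 were 6.34, 6.23 and 6.37 in dpy-27 arrays and 5.16, 5.02 and 4.90 in controls (log2 1.29, SE 0.30, 3 against 3 arrays, adjusted p = 0.00218). Levels of ttr-8 were 5.26, 5.51 and 5.37 against 4.43, 4.43 and 4.74 (log2 0.85, SE 0.20, adjusted p = 0.00231). No control array reached a mutant array in either gene. The control levels of ttr-8 were again low, near the lower quartile of NG-plate arrays (4.42 to 4.48).

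The X-linked ttr-35 was at 8.98, 8.87 and 9.19 against 8.21, 8.49 and 8.29 (log2 0.68, SE 0.25, adjusted p = 0.0436). A small rise was seen in ttr-54 (0.37, SE 0.12, adjusted p = 0.0263), whose neighbour ttr-53 gave 0.12 (adjusted p = 0.67). Among the falls, ttr-16 was at 11.46, 11.12 and 11.36 against 12.05, 12.39 and 12.06 (log2 -0.85, SE 0.24, adjusted p = 0.00789). The others were ttr-2 (-0.85, SE 0.29, adjusted p = 0.0297) and the dim ttr-25 (Y51A2D.10, -0.51, SE 0.15, adjusted p = 0.0141).

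Calls of ttr-32, ttr-8 and ttr-16 held without any single array. That of ttr-35 was lost without any 1 of the 6 arrays (adjusted p 0.0535 to 0.143), that of ttr-54 without dpy-27 array B or C or control array A or B (0.056 to 0.151), that of ttr-2 without dpy-27 array A or B or control array B or C (0.0768 to 0.124) and that of ttr-25 without dpy-27 array A or C or control array B (0.05 to 0.0703). With date codes fitted as random blocks ttr-32 (1.30) and ttr-35 (1.08) were called and no other member was. Centring on autosomal genes moved the median change of all genes by 0.102 and gave 7 higher and 3 lower members. Of the marker lists, 5 of 13 early maternal genes were lower in dpy-27 embryos and 6 of 11 cuticle genes were lower with 2 higher. Intestinal genes were lower in 3 of 7 with 1 higher, and 3 of 4 glial genes were higher. Of genes above the median gene, 22.2% were lower and 24.1% higher. The part of stage or tissue composition in the changes was not tested.

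Set side by side, the changes of ttr-32 were 1.38 in sdc-2, 1.29 in dpy-27 and 0.40 (adjusted p = 0.14) in XO embryos, and those of ttr-8 were 1.19, 0.85 and 0.28 (adjusted p = 0.115). The changes of ttr-2 were -0.91, -0.85 and -0.33 (adjusted p = 0.221). These 3 comparisons share no arrays. No member was called in all 3, 19 were called in at least 1, and 6 (ttr-9, ttr-12, ttr-14, ttr-19, ttr-22 and ttr-28) were called in none of the 6 comparisons made. All but ttr-22 are among the 7 members below the lower quartile on every array.

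The 6 X-linked members are ttr-6, ttr-14, ttr-31, ttr-35, ttr-37 and ttr-48. In sdc-2 embryos 1 of them (ttr-31) was higher and none lower, against 30.7% and 0.638% of X-linked genes. In dpy-27 embryos 1 (ttr-35) was higher and none lower, against 39.2% and 3.87%. In XO embryos over all dates 1 (ttr-6) was lower and none higher, against 33.4% and 2.68%, and at date code 2 alone 3 (ttr-6, ttr-31 and ttr-48) were lower and none higher, against 48.5% and 1.79%. Between wild-type dates 5 were lower and none higher, against 30.1% and 12.1% of X-linked genes, and between XO dates 1 was higher and 2 were lower, against 27.4% and 14.1%. Whether these counts differ from the shares of the chromosome was not tested.

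The counts were also taken over the brighter members alone. Among the 22 members above the median gene, 17 were lower and 1 higher between wild-type dates, against 25.8% and 32.6% of genes of that brightness, and 14 were lower and 4 higher in XO embryos of date code 2, against 28.6% and 35.4%. Between XO dates 8 were higher and 8 lower, against 26.8% and 30.1%. Over all dates 3 were higher and 2 lower in XO embryos, against 23.8% and 20.1%. In sdc-2 embryos 3 were higher and 4 lower, against 13.6% and 21.7%, and in dpy-27 embryos 2 and 2, against 24.1% and 22.2%.

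Adjacent members did not always move alike. Apart from ttr-8 and ttr-32, and ttr-53 and ttr-54, the gene table places ttr-1 beside ttr-2, ttr-16 beside ttr-17, ttr-24, ttr-25 and ttr-26 in a row, and ttr-27, ttr-28 and ttr-29 in another, with no coding gene between. In sdc-2 embryos the changes of ttr-24, ttr-25 and ttr-26 were -0.18, -0.01 and 1.93, and only the last was called. The level of ttr-25 was below the lower quartile on 25 of 26 arrays, so its value says little. Between wild-type dates ttr-17 differed by -2.83 and ttr-16 by -0.91, both called. Between XO dates ttr-17 was higher at date code 5 by 1.19 while ttr-16 was lower (-0.32, SE 0.11, adjusted p = 0.0277).

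The engulfment mediator gene ttr-52 was measured at 6.25 to 7.26 over all arrays. Its level was 7.16 ± 0.09 (SD, n = 3) in XO date code 2, 6.76 ± 0.08 (n = 5) in XO date code 5, 6.37 ± 0.11 (n = 3) in wild-type date code 2 and 6.98 ± 0.28 (n = 3) in wild-type date code 4. It was 6.42 ± 0.07 in sdc-2 embryos against 7.09 ± 0.20 in their controls, and 6.98 ± 0.10 in dpy-27 embryos against 6.97 ± 0.17 (n = 3 each). Its levels thus fell in sdc-2 embryos, gave 0.01 (SE 0.20, adjusted p = 0.977) in dpy-27 embryos, and in XO embryos rose at date code 2 but gave 0.24 (SE 0.13, adjusted p = 0.177) over all dates.

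A list of 23 genes of cell corpse engulfment was measured in full. It is wider than the branch in which TTR-52 acts, so its counts do not describe that branch alone. Of these genes, 7 rose and 5 fell in sdc-2 embryos and 10 rose and 4 fell in dpy-27 embryos. In XO embryos over all dates 10 rose and 3 fell. Of all genes, 8.28% rose and 11.5% fell in sdc-2, 17% and 13.5% in dpy-27, and 15.8% and 14.1% in XO embryos. The mean log2 level of the list was 8.96 to 9.39 over groups and dates, above the median gene (6.4). Of genes above the median gene, 13.6% rose and 21.7% fell in sdc-2, 24.1% and 22.2% in dpy-27, and 23.8% and 20.1% in XO embryos. Whether the list differs from these shares was not tested. The receptor gene ced-1 rose in XO embryos over all dates (0.47, SE 0.10, adjusted p = 0.000707) but was not called at date code 2 (0.30, SE 0.14, adjusted p = 0.103). It gave 0.28 (adjusted p = 0.207) in sdc-2 and -0.18 (adjusted p = 0.397) in dpy-27 embryos. The gene of the ABC transporter CED-7, which acts in the same branch, rose in all 3, by 0.70 (SE 0.17), 0.94 (SE 0.17) and 0.83 (SE 0.11) in sdc-2, dpy-27 and XO embryos. The lipid-binding protein gene nrf-5, whose product acts with TTR-52, rose in XO embryos by 0.93 (SE 0.07, adjusted p = 1.4e-09) and at date code 2 by 0.79 (SE 0.09). It gave -0.30 (adjusted p = 0.0525) in sdc-2 and 0.19 (adjusted p = 0.199) in dpy-27 embryos. Other list genes moved differently. The changes of dyn-1 were 1.41 (adjusted p = 0.000492), -0.36 (adjusted p = 0.327) and -0.90 (adjusted p = 0.000249) in sdc-2, dpy-27 and XO embryos. Those of ced-6 were 0.08 (adjusted p = 0.646), 0.32 (adjusted p = 0.0127) and 0.29 (adjusted p = 0.00115). The phosphatidylserine receptor gene psr-1 fell in sdc-2 embryos (-1.04, SE 0.32) and dpy-27 embryos (-1.10, SE 0.32), and was higher by 0.89 (SE 0.11) at wild-type date code 4 than 2. In XO embryos psr-1 gave -0.29 (SE 0.21, adjusted p = 0.327) over all dates, was higher than in wild type at date code 2 (0.66, SE 0.11, adjusted p = 0.000131) and was lower at date code 5 than 2 (-0.81, SE 0.10, adjusted p = 8.42e-06).

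Levels of the 40 members were set side by side across all 6 groups after a joint quantile normalisation of the arrays, as a description with no test. The range of the 6 group means of a member had a median of 0.852, against 0.708 over all genes, and it was over 1 for 14 members, against 31.5% of all genes. The widest range was that of ttr-31, which was highest in sdc-2 embryos (9.32 ± 0.15, n = 3) and lowest in wild-type egg-plate embryos (6.78 ± 1.04, n = 6). The next was ttr-26, from 7.37 ± 0.24 in sdc-2 embryos to 4.84 ± 0.30 in their controls (n = 3 each), then ttr-18, from 9.20 ± 0.04 in sdc-2 embryos to 6.76 ± 0.18 in dpy-27 embryos (n = 3 each). The intermediate groups of ttr-31, namely dpy-27 (7.93 ± 0.08), wild-type RNAi-plate (7.21 ± 0.53), XO (7.10 ± 0.53) and wild-type NG-plate embryos (7.10 ± 0.15), lay between. The wild-type egg-plate mean of ttr-31 mixes dates that stood far apart, at 7.77 for date code 2 and 5.79 for date code 4 on the deposited scale, and its XO mean mixes 6.52 for date code 2 and 7.42 for date code 5. The place of these 2 groups in the order therefore depends on the dates included. Among the other 4 groups sdc-2 and then dpy-27 embryos stood highest, each above the next by more than 1 SD, and the 2 wild-type groups did not differ beyond their spread. With the egg-plate groups split by date, 15 members were highest in wild-type date code 2 and 14 were lowest in wild-type date code 4. After this split ttr-26 was highest in XO date code 5, not in sdc-2 embryos. Its XO mean mixes 5.32 for date code 2 and 7.51 for date code 5 on the deposited scale. Both ttr-26 and ttr-18 were then lowest in wild-type date code 4, while ttr-18 stayed highest in sdc-2 embryos.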

How the data were processed

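Total RNA of embryos was measured on 26 Affymetrix arrays. The authors deposited log2 expression values; the submitters' processing notes name RMA, with no version. Of 22548 probe sets, 20766 name 1 gene in the array annotation, 887 several and 895 none; of 2981 genes with several probe sets the brightest was kept, giving 17118 genes. Arrays give no read depth, and their number limits the precision.

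Groups came from titles, source names and the growth text. Changes were fitted with limma 3.58.1 in R 4.3.3, two-sided, adjusted by Benjamini-Hochberg over all 17118 genes, called at an adjusted p under 0.05. The 3 mutant comparisons used 1 mean per group over 26 arrays (20 residual, 3.21 prior degrees of freedom), so their spread includes date differences on egg plates. Date comparisons used a mean per group and date on the 14 egg-plate arrays (10 residual, 5.25 prior). The script was tested on simulated data.

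The members and lists were chosen with earlier results of these data known. Named genes are ttr-52, up to 20 called members by size in each mutant comparison, up to 8 in the others, and the 6 brightest and dimmest; other members that are named were chosen after their values were seen. Same-lettered arrays did not pair (correlations 0.053 to 0.25, -0.33 to 0.11 and -0.095 to 0.019 in the sdc-2, dpy-27 and date code 2 XO comparisons). Alternatives changed centring, normalisation, probe sets, brightness filter, array weights, model, threshold and arrays. The NCBI gene table gave names, chromosomes and neighbours. Neighbours were found by ordering protein-coding genes by their start coordinate in that table. No sequences were used here.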

Additional observations from a re-analysis of the deposited data

Results flagged for a closer look

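One array stood far from the rest of its group among 80 gene and group combinations tested for it, where chance alone gives about 1 in 20. The level of ttr-50 was 13.03 in wild-type egg-plate array 4C, against 12.82 to 12.88 in the other 5.

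Some changes differed between genotypes in a test of the difference itself within the same limma model. The changes set against each other come from plate types that look separately normalised. Between sdc-2 and dpy-27 embryos, 8.91% of all genes differed, and among members ttr-18 did by 2.37 (adjusted p = 0.0238) and ttr-54 by -0.61 (adjusted p = 0.0302). Between dpy-27 and XO embryos, 21.3% of all genes differed, and among members ttr-35 did by 1.03 (adjusted p = 0.0167), ttr-48 by 0.99 (adjusted p = 0.0438), ttr-20 by -0.82 (adjusted p = 0.00565) and ttr-53 by -0.81 (adjusted p = 0.00551). Between sdc-2 and XO embryos, 16.6% of all genes differed, and among members ttr-8 did by 0.91 (adjusted p = 0.0108), ttr-20 by -1.14 (adjusted p = 0.000423), ttr-53 by -1.12 (adjusted p = 0.000477), ttr-52 by -0.91 (adjusted p = 0.00882) and ttr-54 by -0.70 (adjusted p = 0.00193). Each value is the first genotype's log2 change minus the second's.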

How the results depend on the processing

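No named change reversed in any alternative run. Counts of called members in the sdc-2, dpy-27 and XO comparisons were 10, 7 and 9. They became 16, 13 and 22 with array weights, and 16 and 20 in sdc-2 and dpy-27 with only the arrays compared. With date codes fitted as random blocks (correlation 0.619) they became 0, 2 and 16, the last with 4 higher and 12 lower. At an adjusted p under 0.01 the sdc-2 and dpy-27 counts were 5 and 3. Centring on autosomal genes gave 5 higher and 5 lower in XO embryos. Leaving out 1 array gave 5 to 9 in sdc-2, lowest without control array C (5) and then A (6), 3 to 5 in dpy-27, lowest without control array B (3), and 6 to 11 in XO. The XO count was 18 without the XO arrays of date code 2 and 5 without those of date code 5, and 22 without the wild-type arrays of date code 2 (20 higher, 2 lower) and 21 without those of date code 4 (4 higher, 17 lower). These 4 alternatives, and leaving out 5A and 5B, were chosen after seeing the data. Arrays with the same letter share only that letter; with it as a replicate block the counts were 17, 19 and 3, and 25 against 24 in XO at date code 2. No member was called in every alternative in the sdc-2 comparison, 1 (ttr-32) in dpy-27 and 3 in XO. The counts of the 3 egg-plate date comparisons stayed within 1.5 times of 24 in all settings.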

Other observations

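The 3 probe sets that name 2 ttr genes each lay outside the rule. The one for ttr-30 and ttr-59, adjacent genes on the X chromosome, rose in sdc-2 embryos (log2 2.36, SE 0.37, 3 against 3 arrays, adjusted p = 0.000127) and in dpy-27 embryos (1.28, SE 0.37, adjusted p = 0.00955). It was lower in XO than in wild-type embryos of date code 2 (-0.56, SE 0.13) and lower in wild-type date code 4 than date code 2 (-1.33, SE 0.13). Between XO dates it was higher at the later date code (0.80, SE 0.12, adjusted p = 6.58e-05). Over all dates XO embryos gave 0.61 against wild type (SE 0.24, adjusted p = 0.0605). The direction in XO embryos thus depended on the dates included. The one for ttr-3 and ttr-4 gave 0.68 (SE 0.21, adjusted p = 0.019) in dpy-27 embryos and -0.78 (SE 0.10) between wild-type dates. The one for ttr-49 and ttr-40 was called only between XO dates, among the 6 comparisons, at 0.28 (SE 0.08, adjusted p = 0.00933). Which gene of a pair carried a change cannot be told apart.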
